A study of Mus musculus with 12 samples.

Results

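The genes described are 8 members of the axis that draws neutrophils into tissue and keeps them supplied: the CXC chemokines Cxcl1, Cxcl2, Cxcl3 and Cxcl5, their receptors Cxcr1 and Cxcr2, the granulocyte colony-stimulating factor gene Csf3 and its receptor Csf3r. They were taken by symbol from the deposited table of read counts per gene, and all 8 were found among its 52636 genes. All 8 also passed the filter on low counts, which left 17993 genes to test.

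Neutrophils leave the blood along gradients of ELR chemokines, CXC chemokines that carry glutamate, leucine and arginine just before the first cysteine. In the mouse these ligands act mainly through Cxcr2, with Cxcr1 as a less studied relative, and resident skin cells, macrophages and neutrophils themselves can all make them. G-CSF, the product of Csf3, promotes the production, release and survival of neutrophils through Csf3r, so the receptors are read in tissue largely on the neutrophils and the ligands come from several cell types.

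Gene expression was measured by paired-end RNA sequencing of whole back skin from female BALB/c mice, aged 6 to 8 weeks by the animal methods and 8 weeks in the account of the injection model. Human cathelicidin LL37, an antimicrobial peptide that is overproduced in rosacea, or its vehicle was injected into the dermis over 2 days, and rapamycin (RAPA), an inhibitor of mTORC1, or its vehicle was given to each. The 4 groups are control (vehicle for both), control + RAPA, LL37 and LL37 + RAPA, with 3 independent samples in each. For BALB/c mice the methods give RAPA by intraperitoneal injection at 4 mg/kg per day, and the route is not named for the sequenced mice. The study asked what inhibition of mTORC1 changes in skin injected with LL37. Injected skin is a model of rosacea-like inflammation, and the RNA came from whole lesions with all their cell types.

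Because the 4 ligands are grouped by a short motif, the stretch of coding sequence around it is shown for each. The bases come from the GENCODE M21 transcripts on build GRCm38, are written 5′ to 3′ on the coding strand, and are coding bases 73 to 132 of Cxcl1, 82 to 141 of Cxcl2 and Cxcl3 and 133 to 192 of Cxcl5, all within coding exons. Capitals mark the codons of the ELR motif with the first cysteine that follows, and then the codon of the next cysteine, with 1 codon (the X of CXC) between them.
Cxcl1: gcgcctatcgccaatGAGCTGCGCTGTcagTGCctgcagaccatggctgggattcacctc
Cxcl2: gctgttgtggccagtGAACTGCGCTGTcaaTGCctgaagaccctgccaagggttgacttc
Cxcl3: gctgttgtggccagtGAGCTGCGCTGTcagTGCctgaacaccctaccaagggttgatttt
Cxcl5: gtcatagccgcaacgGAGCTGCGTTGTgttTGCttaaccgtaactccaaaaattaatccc

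All 4 ligands hold the motif in frame. The coding sequences of Cxcl2 and Cxcl3 were the closest pair, with 89.8% of aligned bases identical. Cxcl1 shared 78.7% with Cxcl2 and 75.6% with Cxcl3. Cxcl5 stood farther off, at 68.4% to Cxcl1 and 63.0% to both Cxcl2 and Cxcl3. The receptors Cxcr1 and Cxcr2 were 72.0% identical. This bears on the counts, since reads can be placed only where copies differ. Of all windows of 100 bases in the transcripts, 3.05% in Cxcl2 and 1.88% in Cxcl3 occurred word for word in another member, and none did in the other members, so little of the signal of Cxcl2 and Cxcl3 could have been split between them. No member overlapped another annotated gene.

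The 4 ligand genes lie together on the plus strand of chromosome 5, where 144511 bases separate the first start from the last. A RefSeq promoter sequence (250 bases before the start to 50 after it, build GRCm38.p6) was at hand for 6 of the 8 members, with Cxcl5 and Csf3 named only. Stretches of 95 bases are shown for 3 ligands because these genes were all called higher in LL37 than in control and their promoters hold the same 10-base word. They run from 110 to 16 bases before the RefSeq start, on the plus strand, at chr5:90891135-90891229, chr5:90903789-90903883 and chr5:90785991-90786085 in the order given. The first capitals mark GGGAATTTCC, which fits the NF-κB consensus, and the second capitals mark ATAAAAG.
Cxcl1: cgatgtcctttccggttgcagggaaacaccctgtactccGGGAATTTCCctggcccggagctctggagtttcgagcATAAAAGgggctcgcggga
Cxcl2: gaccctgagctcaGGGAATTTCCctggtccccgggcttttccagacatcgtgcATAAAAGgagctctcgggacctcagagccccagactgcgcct
Cxcl3: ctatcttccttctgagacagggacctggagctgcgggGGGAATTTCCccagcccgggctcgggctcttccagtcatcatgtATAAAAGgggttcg

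The word GGGAATTTCC, chosen from the consensus matches in these ligand promoters themselves, was present in 29 of 32851 RefSeq promoters of this length (0.0883%). Its presence in the 3 ligands was thus known beforehand, and the share is a description and no test. The word began 71 bases before the RefSeq start in Cxcl1, 97 in Cxcl2 and 73 in Cxcl3. For Cxcl2 the GENCODE gene start, 90903871, lies within the stretch shown, so its distance depends on the start used. Promoters were searched on both strands for the NF-κB consensus, for the AP-1 word TGANTCA, for the C/EBP word TTNNGNAA, for TATAAA and, after the promoters had been seen, for ATAAAAG. The NF-κB consensus was found in 8.459% of all promoters, AP-1 in 7.808%, C/EBP in 40.684%, TATAAA in 13.616% and ATAAAAG in 5.415%. Beyond the 3 ligands, where the consensus also matched the other strand 1 base along, it was matched in Csf3r by GGGACCTTCC on the minus strand, from 129 to 120 bases before the start. TATAAA was matched in Cxcl3, where it overlaps ATAAAAG, C/EBP in Cxcl2, and ATAAAAG in Cxcr1 on the minus strand. A match is a description of these letters and not evidence of a bound factor.

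The libraries held 15734559 to 23271784 counts, and 3 counts, the floor used here, correspond to 0.123 to 0.184 CPM. Levels are given as CPM, read counts scaled to library size with the TMM correction. The label of skin was checked on keratinocyte markers: the sum of Krt5, Krt14, Krt1, Krt10 and Krtdap lay between 19467.5 and 37410.1 CPM in every library. This sum moved with the groups, at 26721 to 37410 CPM in LL37, 19934 to 27693 in control and 21151 to 22780 in LL37 + RAPA. Of the 5 genes, 1 was called higher in LL37 than in control, Krt14 (log2 1.12 ± 0.19, edgeR adjusted p = 0.000697), and none in LL37 vs LL37 + RAPA, where 3 had an unadjusted p under 0.05 and DESeq2 called none. Their part in the levels of genes that keratinocytes also express, such as Cxcl5, Il1a and Il36g, was not tested. On the first principal component, which took 68.3% of the variance, LL37 replicate 3 scored 64.4 against 133 and 129 for LL37 replicates 1 and 2. It was the lowest of its group for 8 of 8 members, and LL37 + RAPA replicate 1 was the lowest of its group for 6. The results were therefore also computed without these libraries. Summed skeletal muscle markers went from 17209 to 26950 CPM in control skin to 10.8 to 454 in LL37 and 1749 to 3974 in LL37 + RAPA. What part of the members' differences goes with this was not tested, and leaving the 8 muscle genes out of the fit changed no count of members called. In whole skin, fewer cells of a type and less RNA per cell cannot be told apart.

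**Figure D1:**
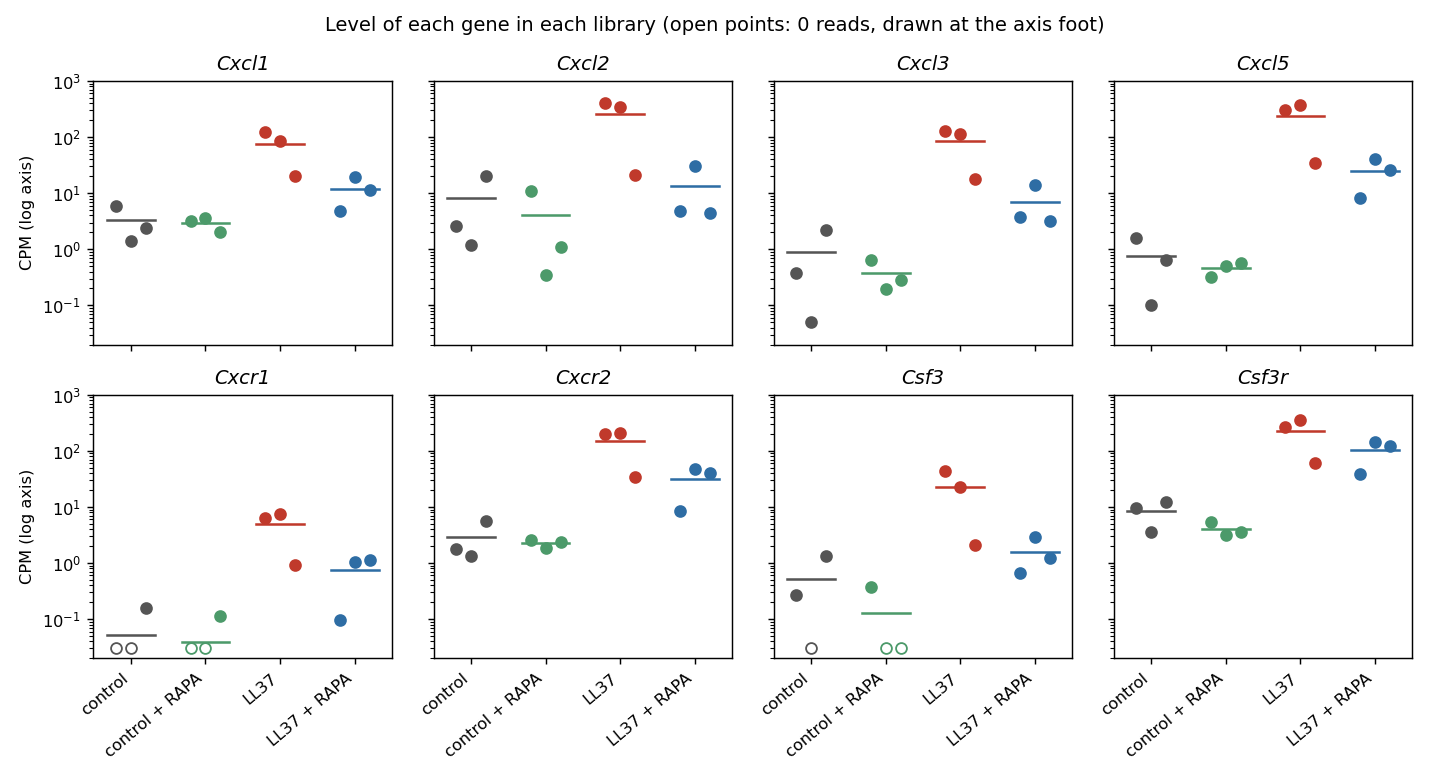
Level of each of the 8 genes in each library as CPM on a log axis, 1 panel a gene, with 3 points a group and a line at the group mean. Libraries with 0 reads are drawn as open points at the foot of the axis. In each panel 2 LL37 libraries sit above all others, and the LL37 point lowest in each panel is replicate 3.

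LL37 injection was followed by a rise of all 4 ELR ligands. Cxcl5 (ENSMUSG00000029371, chromosome 5, 90759360 to 90761624) encodes a chemokine best known from epithelial cells. Control replicates 1 to 3 held 1.56, 0.103 and 0.632 CPM of Cxcl5, and the LL37 replicates held 299, 371 and 34.4 CPM. The LL37 + RAPA replicates held 8.21, 40.8 and 26.4 CPM, and the control + RAPA replicates 0.325, 0.494 and 0.576 CPM. Cxcl5 was thus low in every library without LL37 and far above that in every LL37 library, with no overlap between LL37 and control. Its log2 fold change was 8.27 ± 1.06 (SE, n = 3 a group, edgeR quasi-likelihood adjusted p = 0.000128), which ranked 6 among the 17993 genes tested.

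Cxcl2 (ENSMUSG00000058427, chromosome 5, 90903871 to 90905938) encodes a chemokine made rapidly by macrophages and neutrophils. Its control levels were 2.59, 1.18 and 20.4 CPM, and its LL37 levels 405, 345 and 21.1 CPM. LL37 + RAPA skin had 4.89, 30.2 and 4.46 CPM and control + RAPA skin 10.8, 0.346 and 1.09 CPM. The LL37 group lay above control, but only just: LL37 replicate 3 stood at 21.1 CPM and control replicate 3 at 20.4. The log2 fold change was 4.99 ± 1.43 (edgeR adjusted p = 0.0149), the largest SE of the 8 members in this comparison. The call was lost in 3 of 21 alternatives with adjusted p up to 0.0821, among them without control replicate 1 (4.56, adjusted p = 0.0578) and without control replicate 2 (4.46, adjusted p = 0.0505).

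Cxcl3 (ENSMUSG00000029379, chromosome 5, 90786103 to 90789600), the closest relative of Cxcl2 in sequence, followed with 0.377, 0.0513 and 2.21 CPM in control and 126, 113 and 18.1 CPM in LL37. In LL37 + RAPA it read 3.70, 14.1 and 3.16 CPM, and in control + RAPA 0.651, 0.198 and 0.288 CPM. No LL37 library came near any control library. Its log2 fold change was 6.60 ± 1.02 (edgeR adjusted p = 0.000428).

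Cxcl1 (ENSMUSG00000029380, chromosome 5, 90891241 to 90893115), the ligand most often used to follow neutrophil recruitment in mice, started from a base that was present in every control library. Its control levels were 5.98, 1.38 and 2.42 CPM and its LL37 levels 122, 84.8 and 20.02 CPM. LL37 + RAPA held 4.79, 19.4 and 11.6 CPM, and control + RAPA 3.14, 3.65 and 2.07 CPM. Its log2 fold change was the smallest of the 8 at 4.54 ± 0.74 (edgeR adjusted p = 0.000593), and the groups did not overlap.

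Both receptors also rose. Cxcr2 (ENSMUSG00000026180, chromosome 1, 74153989 to 74161246), the main receptor of these ligands on mouse neutrophils, stood at 1.78, 1.33 and 5.53 CPM in control and 204, 210.0 and 34.2 CPM in LL37. LL37 + RAPA libraries held 8.40, 47.7 and 40.03 CPM and control + RAPA libraries 2.55, 1.83 and 2.36 CPM. The log2 fold change of LL37 over control was 5.69 ± 0.86 (edgeR adjusted p = 0.000359), and all LL37 libraries were above all control libraries.

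Cxcr1 (ENSMUSG00000048480, chromosome 1, 74191785 to 74194631) lies beside Cxcr2 and encodes a second receptor for some of these ligands. It gave 0, 0 and 3 reads in control and 115, 123 and 20 reads in LL37. With RAPA it gave 2, 25 and 25 reads in LL37 skin and 0, 0 and 2 in control skin. The summed reads, scaled for depth, were 87.7 times higher in LL37 than in control, with an exact Poisson 95% interval of 29.7 to 428 that covers counting error only. The fit called it (log2 fold change 6.37 ± 1.20, edgeR adjusted p = 0.00141), but with a control group at the floor the fitted size depends on the prior count.

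Csf3 (ENSMUSG00000038067, chromosome 11, 98701263 to 98703629), which encodes G-CSF itself, read 0.270, 0 and 1.32 CPM in control and 43.8, 22.9 and 2.07 CPM in LL37. LL37 + RAPA gave 0.664, 2.87 and 1.22 CPM, and control + RAPA 0.380, 0 and 0 CPM. Between its highest and lowest LL37 library Csf3 differed 21.1-fold, the widest spread of the 8, and its lowest LL37 library still exceeded the highest control library. Its log2 fold change was 5.42 ± 1.18 (edgeR adjusted p = 0.00336).

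Csf3r (ENSMUSG00000028859, chromosome 4, 126024550 to 126044440), the receptor through which G-CSF acts on neutrophils and their precursors, held 9.44, 3.64 and 12.3 CPM in control and 265, 351 and 61.8 CPM in LL37. LL37 + RAPA libraries held 38.0, 146 and 123 CPM and control + RAPA libraries 5.31, 3.16 and 3.57 CPM. Control and LL37 did not overlap, and the spread within LL37 was the narrowest of the 8 at 5.68-fold. The log2 fold change was 4.74 ± 0.71 (edgeR adjusted p = 0.000351).

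Counted together, 8 of 8 members were called higher in LL37 than in control, against 8.73% of all tested genes in that direction. A gene is called here at an edgeR adjusted p under 0.05 with an absolute log2 fold change above 1. In 8 of 8 members every LL37 library was above every control library, against 23.8% of tested genes. The median log2 fold change of the members was 5.56, or 5.21 with Cxcr1 set to the lower end of its counting interval, and that of all tested genes was 0.00 (-0.0049). All 8 were still called when LL37 replicate 3 was left out, and also under DESeq2. Of all tested genes, 4287 and 3548 were called in these fits in either direction, against 3516 in the main fit. Without control replicate 3, the control library with the highest level of 6 members, the estimates rose to 7.07 for Cxcl2, 8.61 for Cxcl3, 7.36 for Csf3, 6.56 for Cxcr2 and, against a control group then at 0, 9.59 for Cxcr1. Without LL37 replicate 1 the estimate for Csf3 was 4.54, and without control replicate 1 that for Cxcl5 was 9.30 and that for Cxcl1 5.30.

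**Figure D2:**
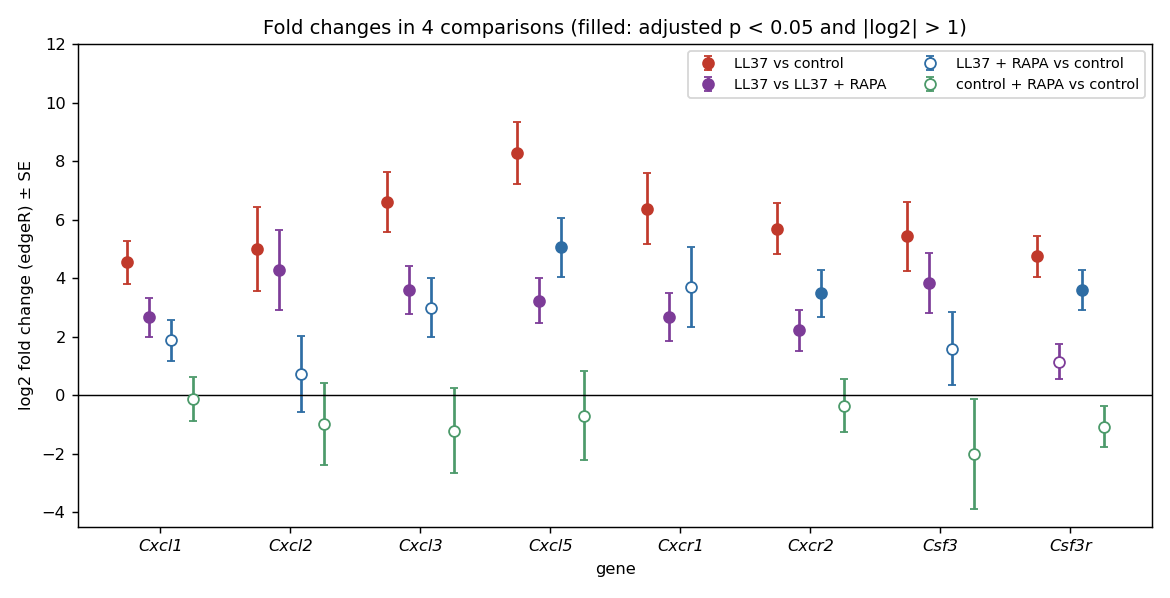
Log2 fold changes from edgeR with their SE for the 8 genes in 4 comparisons of 3 libraries a group. Filled points passed the threshold. The comparison of LL37 with control lies between 4.54 and 8.27 for all 8 genes, and Csf3r is the single open point among those of LL37 vs LL37 + RAPA. Cxcr1 is left out of control + RAPA vs control, where both groups were at the floor.

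The second comparison asked what RAPA changed in skin that received LL37. Levels of 7 of the 8 members were called higher in LL37 than in LL37 + RAPA, against 4.33% of tested genes, and the exception was Csf3r. Among the ligands, Cxcl2 had the largest difference at 4.28 ± 1.36 on the log2 scale (edgeR adjusted p = 0.0407). Cxcl3 followed at 3.60 ± 0.82 (adjusted p = 0.0103), Cxcl5 at 3.22 ± 0.77 (adjusted p = 0.0128) and Cxcl1 at 2.65 ± 0.66 (adjusted p = 0.0150). Csf3 differed by 3.83 ± 1.03 (adjusted p = 0.0209). The receptors differed by 2.68 ± 0.82 for Cxcr1 (adjusted p = 0.0356) and 2.22 ± 0.70 for Cxcr2 (adjusted p = 0.0395). For Csf3r the difference was 1.14 ± 0.60 (adjusted p = 0.189), which did not pass.

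The groups overlapped in most members. Only Cxcl1 and Cxcl3, 2 of 8, had every LL37 library above every LL37 + RAPA library, against 17.6% of tested genes, and for Cxcl1 the gap was narrow (20.02 CPM in LL37 replicate 3 and 19.4 in LL37 + RAPA replicate 2). For the other 6 members LL37 replicate 3 lay below at least 1 LL37 + RAPA library. The median log2 difference of the members was 2.95, and that of all tested genes 0.00 (-0.0042).

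The count of 7 depended on single libraries. It was 2 without LL37 replicate 1, 4 without LL37 replicate 2 and 8 without LL37 replicate 3. It was 2 without LL37 + RAPA replicate 1, 5 without replicate 2 and 2 without replicate 3 of that group. Even leaving out a control + RAPA library, which bears on this comparison mainly through the shared estimate of the spread, moved it to 6, 6 or 4. With both LL37 replicate 3 and LL37 + RAPA replicate 1 left out it was 8, and Csf3r was then called as well (1.19 ± 0.37, edgeR adjusted p = 0.0381). Calls over all tested genes, in either direction, moved too. They went from 1823 with all libraries to 1104, 1385 and 2727 without LL37 replicates 1, 2 and 3. Without LL37 + RAPA replicates 1, 2 and 3 they were 1200, 1636 and 1440, and without a control + RAPA library 1760 to 1809. With both LL37 replicate 3 and LL37 + RAPA replicate 1 left out they were 2346. Over these alternatives the estimate ran from 3.79 to 5.78 for Cxcl2, 3.22 to 4.64 for Cxcl3, 2.73 to 3.76 for Cxcl5, 2.12 to 3.20 for Cxcl1 and 2.95 to 4.59 for Csf3, and no member changed direction. Cxcl3 was called in each of the 21 alternatives that tested it, with adjusted p from 0.000644 to 0.0499. Cxcl5 was called in 20 of 21, Cxcl1 in 18 of 22, Csf3 in 15 of 21, Cxcl2 in 13 of 21, Cxcr1 in 12 of 21 and Cxcr2 in 11 of 22. DESeq2 called 5 members and did not call Cxcr1 (adjusted p = 0.115) or Csf3 (adjusted p = 0.0705). Of all tested genes it called 1937 in either direction.

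LL37 + RAPA skin was also set against control skin, which asks what was left of the LL37 response under RAPA. Here 3 of the 8 members were called higher, against 2.15% of tested genes. Cxcl5 was 5.05 ± 1.01 higher on the log2 scale (edgeR adjusted p = 0.00597), Csf3r 3.60 ± 0.68 (adjusted p = 0.00428) and Cxcr2 3.48 ± 0.80 (adjusted p = 0.0138). Cxcl3 stood at 2.99 ± 1.00 (adjusted p = 0.0692) and Cxcl1 at 1.88 ± 0.70 (adjusted p = 0.103), neither past the threshold. Csf3 stood at 1.59 ± 1.23 (adjusted p = 0.460) and Cxcl2 at 0.72 ± 1.29 (adjusted p = 0.786). Cxcr1 gave 14.6 times the summed reads of control, with a 95% counting interval of 4.73 to 73.1, and was not called (adjusted p = 0.0995).

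In 4 of 8 members, Cxcl3, Cxcl5, Cxcr2 and Csf3r, every LL37 + RAPA library exceeded every control library, against 16.9% of tested genes. The median log2 difference was 3.23, or 2.62 with Cxcr1 at the lower end of its interval, and 0.00 (0.0048) over all tested genes. Without LL37 replicate 3 the count rose to 6, adding Cxcl1, Cxcl3 and Cxcr1, and without control replicate 3 it was 4, adding Cxcl3 (5.01, edgeR adjusted p = 0.0431). Over all tested genes, calls in either direction went from 1168 to 1394 without the first of these libraries and to 941 without the second. LL37 replicate 3 is in neither group compared here, and bears on the comparison mainly through the shared estimate of the spread. Cxcr2 was not called without control replicate 1 (adjusted p = 0.0581), control replicate 2 (adjusted p = 0.0573) or LL37 + RAPA replicate 2 (adjusted p = 0.0539). Cxcl2, at 257 ± 207 CPM (SD, n = 3) in LL37, was at 13.2 ± 14.7 in LL37 + RAPA and 8.07 ± 10.7 in control. Cxcl5, at 235 ± 177 CPM in LL37, was at 25.1 ± 16.3 in LL37 + RAPA and 0.766 ± 0.740 in control. The LL37 + RAPA mean of Cxcl2 was thus within the spread of control, and that of Cxcl5 was not.

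RAPA given without LL37 was compared with control to learn its effect on uninflamed skin. No member was called in either direction (0 of 8, against 0% of tested genes), none had an unadjusted p under 0.05, and DESeq2 called none. Over all genes 1556 had an unadjusted p under 0.05 and DESeq2 called 53. The estimates were small against their errors, from -0.13 ± 0.76 for Cxcl1 to -2.02 ± 1.88 for Csf3 on the log2 scale, with Cxcr2 at -0.36 ± 0.90, Cxcl5 at -0.70 ± 1.51, Cxcl2 at -0.99 ± 1.39 and Cxcl3 at -1.21 ± 1.45, and adjusted p ranged from 0.714 to 0.978. Csf3r was at 4.01 ± 1.14 CPM in control + RAPA and 8.45 ± 4.40 in control (log2 difference -1.07 ± 0.70, edgeR adjusted p = 0.714). For Cxcr1 both groups were at the floor and no fold is given. The SEs of the others ran from 0.70 to 1.88 on this scale, so a missed threshold does not show that the levels were equal.

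The interaction, the effect of RAPA in LL37 skin minus its effect in control skin, tests whether these effects differ, and is written on the log2 scale. None of the 8 was called (0 of 8, against 0.65% of tested genes called lower), and 1 had an unadjusted p under 0.05. That gene was Cxcl1, with an interaction of -2.53 ± 0.99 (edgeR adjusted p = 0.161). Cxcl2 had -3.29 ± 1.88 (adjusted p = 0.327), Cxcl3 -2.39 ± 1.80, Cxcl5 -2.52 ± 1.78 and Cxcr2 -1.86 ± 1.13, with adjusted p of 0.358 or more for the last 3. Csf3 had -1.81 ± 2.55 (adjusted p = 0.717) and Csf3r was near 0, at -0.07 ± 0.94 (adjusted p = 0.978). The stronger fall under RAPA in LL37 skin than in control skin was thus not shown for any member with all 12 libraries. Cxcl1 was called without LL37 replicate 3 (-2.98 ± 0.77, edgeR adjusted p = 0.0218), and DESeq2 called no member. Over all tested genes, interaction calls in either direction went from 429 to 1760 without LL37 replicate 3, and DESeq2 called 1008 with all 12 libraries.

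Levels of different genes are compared per kilobase of exon (CPM per kb of the union of a gene's exons, mean ± SD, n = 3). In LL37 skin the order was Cxcl5 at 126 ± 95.2, Cxcl2 at 124 ± 99.9, Csf3r at 62.6 ± 41.2, Cxcr2 at 49.0 ± 32.7, Cxcl1 at 40.3 ± 27.6, Cxcl3 at 24.5 ± 16.8, Csf3 at 16.2 ± 14.8 and Cxcr1 at 3.29 ± 2.35. No pair of neighbours in this order differed by more than the larger of their SDs. These SDs hold the spread between libraries, which the members share, so they do not test the order. In every LL37 library Csf3r was above Cxcr2, Cxcr2 above Cxcl1, Cxcl1 above Cxcl3, Cxcl3 above Csf3 and Csf3 above Cxcr1. The order of Cxcl5 and Cxcl2, and that of Cxcl2 and Csf3r, changed between LL37 libraries. In LL37 + RAPA skin Csf3r came first at 28.4 ± 15.8, followed by Cxcl5 at 13.5 ± 8.77, Cxcr2 at 10.52 ± 6.84, Cxcl1 at 6.38 ± 3.91 and Cxcl2 at 6.37 ± 7.12. Cxcl3 at 1.995 ± 1.76, Csf3 at 1.12 ± 0.810 and Cxcr1 at 0.502 ± 0.381 came last. In control skin Cxcl2 at 3.902 ± 5.19, Csf3r at 2.34 ± 1.22 and Cxcl1 at 1.74 ± 1.29 led, and Cxcl5 was at 0.411 ± 0.397. The order depends on the length used. Per kb of main transcript the LL37 levels were 232 ± 186 for Cxcl2, 149 ± 113 for Cxcl5, 84.2 ± 57.9 for Cxcl3, 79.4 ± 54.2 for Cxcl1, 64.9 ± 42.7 for Csf3r, 49.1 ± 32.8 for Cxcr2, 16.2 ± 14.8 for Csf3 and 3.39 ± 2.41 for Cxcr1. Cxcl2 then led and Csf3r came after all 4 ligands. The lengths differ most for Cxcl3, whose exons sum to 3498 bases while its main transcript has 1016.

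Ratios within a library remove whatever scales all members alike. With 3 libraries against 3 an exact two-sided permutation test cannot give a p below 0.1, so the ratios are given as ranges. Csf3 over Csf3r, in CPM, lay between 0.0335 and 0.165 in LL37 and between 0.00989 and 0.0196 in LL37 + RAPA, without overlap, while control, at 0 to 0.107, overlapped both. Cxcl5 over Cxcr2 was 1.01 to 1.77 in LL37 and 0.660 to 0.977 in LL37 + RAPA, also without overlap. In control it was 0.0769 to 0.879, below LL37 and overlapping LL37 + RAPA. Cxcl2 over Cxcr2 was 0.615 to 1.98 in LL37 and 0.111 to 0.632 in LL37 + RAPA, which overlap. In control it was 0.885 to 3.70, above every LL37 + RAPA library. In control + RAPA it was 0.189 to 4.23, which overlaps LL37 + RAPA. Cxcl5 over Cxcl1 was 0.0741 to 0.261 in control, 1.72 to 4.38 in LL37 and 1.71 to 2.27 in LL37 + RAPA, so that the balance of these ligands in both LL37 groups lay apart from control. In control + RAPA, Cxcl5 over Cxcl1 was 0.103 to 0.278, Cxcl5 over Cxcr2 0.128 to 0.270 and Csf3 over Csf3r 0 to 0.0714.

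**Figure D3:**
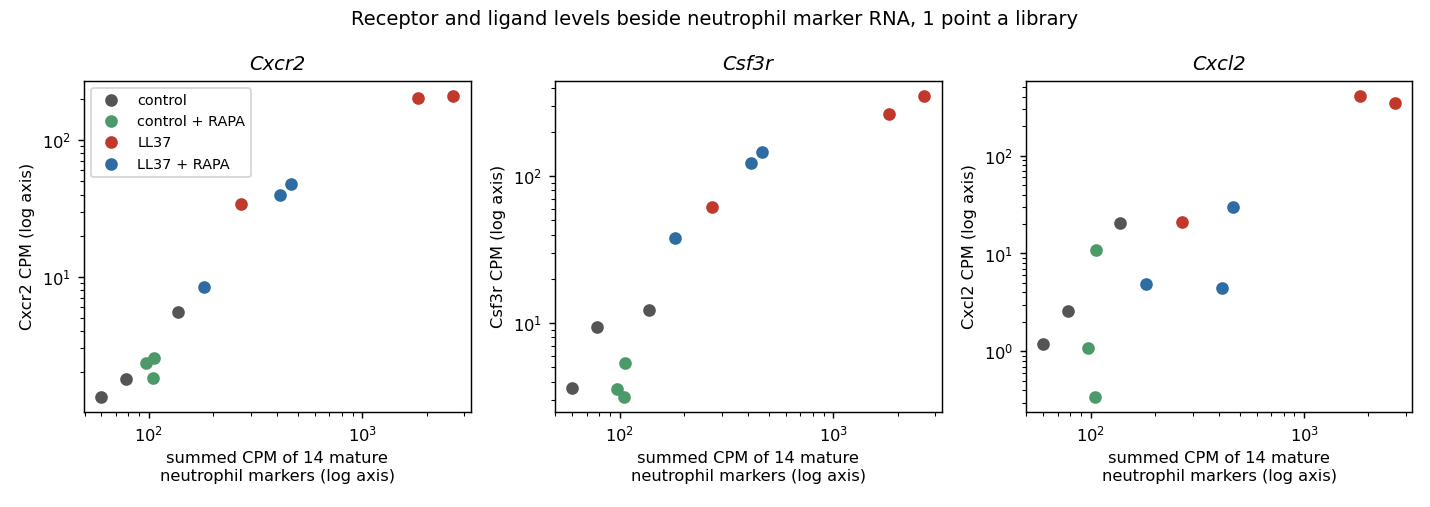
Levels of Cxcr2, Csf3r and Cxcl2 (CPM) against the summed CPM of 14 mature neutrophil markers, both on log axes, 1 point for each of the 12 libraries. Cxcr2 and Csf3r climb with the marker sum across groups, from 60.0 to 2658 CPM of markers, and LL37 replicate 3 sits among the LL37 + RAPA libraries. In the Cxcl2 panel the control and control + RAPA libraries, with the lowest marker sums, spread from 0.346 to 20.4 CPM.

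Markers of mature neutrophils moved with the members. The list holds 14 genes (S100a8, S100a9, Ly6g, Cd177, Retnlg, Mmp8, Mmp9, Trem1, Clec4d, Il1r2, Fpr1, Fpr2, Mrgpra2b and Stfa2l1), of which 13 were tested. All 13 were called higher in LL37 than in control, 6 were called higher in LL37 than in LL37 + RAPA, and 3 higher in LL37 + RAPA than in control. Without LL37 replicate 3, when all 14 could be tested, these counts were 14, 11 and 8. The last is for a comparison that does not include that library. The summed level of the 14 markers was 60.0 to 138 CPM in control, 97.4 to 106 in control + RAPA, 269 to 2658 in LL37 and 182 to 463 in LL37 + RAPA. In LL37 libraries none of the 14 was at 0, while up to 5 were at 0 in a control library. The sum in control skin was carried in large part by Il1r2 (45.9 CPM) and Mmp9 (15.6 CPM). What part of the members' differences goes with the number of neutrophils was not tested.

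Set against that sum, Cxcr2 was 2.22% to 4.02% of it in control, 7.90% to 12.7% in LL37 and 4.62% to 10.3% in LL37 + RAPA. Csf3r was 6.06% to 12.02% in control, 13.2% to 22.99% in LL37 and 20.9% to 31.6% in LL37 + RAPA. For both receptors the LL37 and LL37 + RAPA ranges overlapped and lay above the control range. The sum differs in make-up between groups. In control it was in large part Il1r2 and Mmp9, while in LL37 S100a8 and S100a9 had means of 403 and 653 CPM. The shares therefore do not measure receptor RNA per neutrophil. Markers of neutrophil precursors (Mpo, Elane, Prtn3, Ctsg, Ngp, Ltf and Camp) had a sum of 9.11 to 13.4 CPM in control, 5.33 to 7.35 in LL37 and 9.68 to 12.8 in LL37 + RAPA. Of the 4 tested, 1 was called higher and 1 lower in LL37 than in control, and up to 3 of the 7 were at 0 in an LL37 library. Macrophage markers, which include Csf1r, summed to 328 to 637 CPM in control, 1082 to 1099 in LL37 and 637 to 914 in LL37 + RAPA, with 3 of 6 called higher in LL37 than in control. T cell markers (Cd3d, Cd3e, Cd3g, Cd4 and Cd8a) summed to 8.79 to 12.7 CPM in control, 15.5 to 17.6 in LL37 and 7.03 to 7.59 in LL37 + RAPA, and adipocyte markers to 889 to 1561, 282 to 547 and 1857 to 2135 CPM. The part of these cell types in the members' levels was not tested.

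Other genes of the axis were taken from 7 lists of 55 genes in all, of which 49 were tested. Of the 49, 27 were called higher in LL37 than in control and none lower, with a median log2 fold change of 1.22. In LL37 vs LL37 + RAPA, 12 were called higher and none lower (median 0.49), and for LL37 + RAPA vs control the counts were 8 and 0 (median 0.60). Without LL37 replicate 3 the numbers higher were 33, 19 and 13, with 1 lower in the first and second comparison. The third comparison does not include that library. By DESeq2 the numbers higher were 27, 13 and 11, with none lower.

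**Figure D4:**
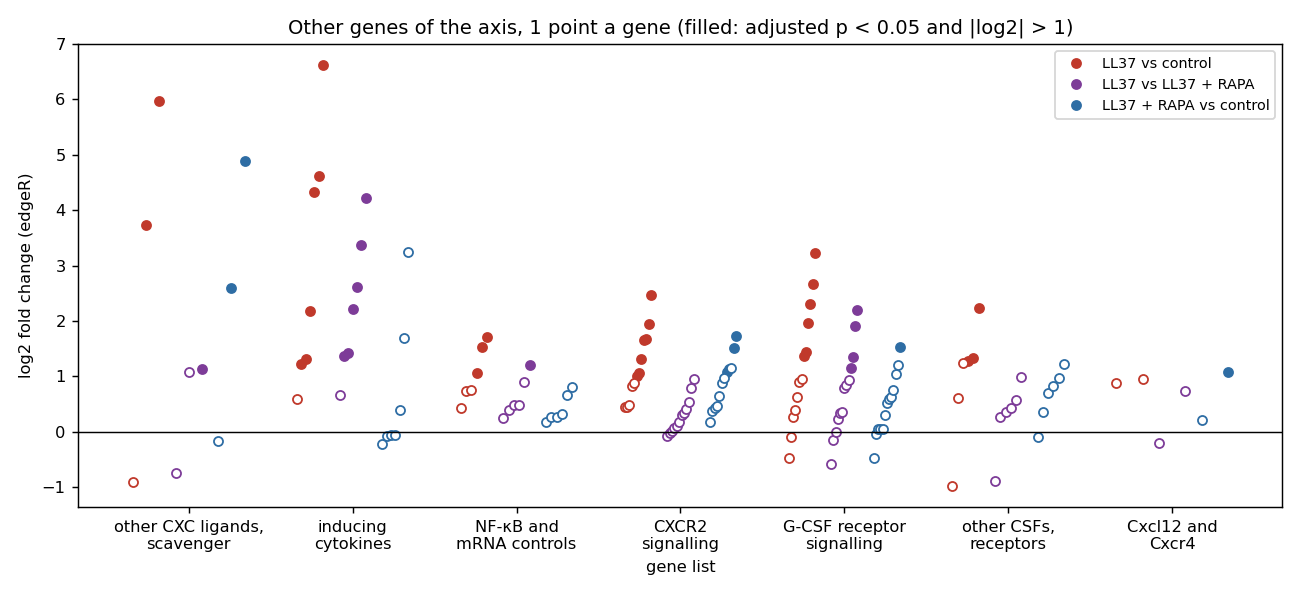
Log2 fold changes from edgeR for the 49 tested genes of 7 lists, 1 point a gene, in 3 comparisons of 3 libraries a group. Filled points passed the threshold. The inducing cytokines hold 6 filled points in each comparison of LL37 with another group and none in LL37 + RAPA vs control, and CXCR2 signalling holds 7, 0 and 4.

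Among cytokines known to induce the ligands and G-CSF, 6 of the 7 tested were called higher in LL37 than in control, and the count was also 6 for LL37 over LL37 + RAPA. None was called by edgeR in LL37 + RAPA vs control, where 1 had an unadjusted p under 0.05 and DESeq2 called 1. Il1b, the interleukin with the widest role in neutrophilic inflammation, was at 181 ± 144 CPM (SD, n = 3) in LL37, 9.61 ± 7.01 in LL37 + RAPA and 7.35 ± 10.9 in control. Its log2 fold change over control was 4.62 ± 1.35 (edgeR adjusted p = 0.0167) and over LL37 + RAPA 4.22 ± 1.31 (adjusted p = 0.0372), and its LL37 and control libraries overlapped. The call over LL37 + RAPA was lost in 7 of 21 alternatives, among them leaving out LL37 replicate 1 or 2 or any LL37 + RAPA library, and that over control in 3 of 21, among them leaving out control replicate 1 (highest adjusted p = 0.0612). Tnf, a second classical inducer, was at 13.5 ± 7.09, 2.88 ± 0.726 and 2.99 ± 2.39 CPM in the same order of groups, with log2 fold changes of 2.18 (edgeR adjusted p = 0.00831) and 2.23 (edgeR adjusted p = 0.0151). Its LL37 and control libraries also overlapped, and the call over LL37 + RAPA was lost in 2 of 22 alternatives.

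Il1a, an alarmin stored in keratinocytes, was at 20.6 ± 10.02 CPM in LL37, 7.96 ± 0.590 in LL37 + RAPA and 8.29 ± 0.597 in control, and was called in both comparisons with LL37 (log2 1.31 and 1.37, edgeR adjusted p = 0.00221 and 0.00521), neither of them without LL37 replicate 1. Il36g, an epidermal relative of interleukin 1, was at 111 ± 22.3, 41.0 ± 6.28 and 47.5 ± 7.97 CPM (log2 1.22 and 1.43, adjusted p = 0.000286 and 0.00124). Il6 was at 21.4 ± 19.5, 2.03 ± 1.33 and 0.212 ± 0.110 CPM (log2 6.62 and 3.38, adjusted p = 0.000698 and 0.0151), and Osm, a cytokine of the same family, was at 20.6, 3.30 and 1.02 CPM (log2 4.32 and 2.62, adjusted p = 0.00258 and 0.0333). The call of Il6 over LL37 + RAPA was lost in 4 of 21 alternatives: with the compared groups fitted alone, without LL37 replicate 1 and without LL37 + RAPA replicate 1 or 3 (highest adjusted p = 0.0721). For both Il6 and Osm the LL37 and LL37 + RAPA libraries overlapped. Il36a, the seventh gene tested, stood at log2 0.60 and 0.67 (adjusted p = 0.229 and 0.220) and is named after its values were seen. The interleukin 17 genes did not pass the filter. Il17a and Il17f gave a mean of 0.0817 and 0.0675 CPM in LL37 and were at 0 reads in control and in LL37 + RAPA. Il17c, an epithelial family member, was at 0.784 ± 0.371 CPM in LL37, 0.336 ± 0.133 in LL37 + RAPA and 0.208 ± 0.175 in control, and was not tested.

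Of 6 genes that control these messages in the nucleus or by decay, 3 were called higher in LL37 than in control. Nfkbiz, a nuclear cofactor of NF-κB, stood at log2 1.06 ± 0.18 (edgeR adjusted p = 0.00072), Zc3h12a, an RNase that degrades cytokine mRNAs, at 1.72 ± 0.26 (adjusted p = 0.00035), and Tnfaip3, a brake on NF-κB, at 1.54 ± 0.40 (adjusted p = 0.00932). In LL37 vs LL37 + RAPA 1 of 6 was called, Tnfaip3 (1.21 ± 0.40, edgeR adjusted p = 0.0446), a call lost in 11 alternatives. Zc3h12a passed the limit on adjusted p there but not that on size (0.90 ± 0.25, edgeR adjusted p = 0.0248). Nfkbiz differed by 0.40 ± 0.18 (edgeR adjusted p = 0.123). None was called by edgeR or DESeq2 in LL37 + RAPA vs control, where 2 had an unadjusted p under 0.05. Of these, Nfkbiz passed the limit on adjusted p but not that on size (0.67 ± 0.18, edgeR adjusted p = 0.0279). The call of Nfkbiz in LL37 vs control was lost without control replicate 1 and without LL37 replicate 1.

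Downstream of Cxcr2, 7 of 12 signalling genes were called higher in LL37 than in control, 0 in LL37 vs LL37 + RAPA and 4 in LL37 + RAPA vs control. In the second of these, 2 had an unadjusted edgeR p under 0.05, DESeq2 called 0, and 2 were called without LL37 replicate 3. Vav1, an exchange factor of blood cells, was at 59.9 ± 17.5 CPM in LL37, 30.8 ± 8.91 in LL37 + RAPA and 10.8 ± 2.23 in control, with a log2 fold change of 2.47 over control (edgeR adjusted p = 4.17e-05). Over LL37 + RAPA, Vav1 passed the limit on adjusted p but not that on size (log2 0.957, edgeR adjusted p = 0.0198). Arrb2, an arrestin that ends signalling of chemokine receptors, was at 137 ± 16.5, 109 ± 16.2 and 55.2 ± 11.6 CPM (log2 1.31, adjusted p = 8.71e-05). These genes are used by many leukocytes.

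Of 13 genes in the pathway of the G-CSF receptor, 6 were called higher in LL37 than in control, 4 higher in LL37 than in LL37 + RAPA and 1 higher in LL37 + RAPA than in control. Stat3, which carries the G-CSF signal to the nucleus, had log2 fold changes of 1.44 ± 0.24 and 1.15 ± 0.23 in the first and second of these comparisons (edgeR adjusted p = 0.000589 and 0.00646). Socs1, a feedback inhibitor, had 1.97 ± 0.31 and 1.34 ± 0.30 (adjusted p = 0.000446 and 0.00907). Without LL37 replicate 3 the first and second counts were 8 and 7.

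In the list of other CXC ligands and a scavenger, 2 of the 3 tested genes were called higher in LL37 than in control. Ppbp, a platelet ligand of Cxcr2, was at 13.5 ± 2.59 CPM in LL37, 6.37 ± 6.08 in LL37 + RAPA and 0.210 ± 0.139 in control, and was called over control (log2 5.97 ± 0.74, edgeR adjusted p = 0.000105) but not over LL37 + RAPA (1.08 ± 0.51, adjusted p = 0.147). Pf4, another platelet chemokine, was at 217 ± 44.4, 98.9 ± 45.4 and 16.4 ± 8.96 CPM (log2 3.73, adjusted p = 3.82e-05, and 1.13 over LL37 + RAPA, adjusted p = 0.0398, a call lost in 11 alternatives). The scavenger Ackr1, which binds these chemokines on venules and is named after its values were seen, stood at log2 -0.91 (adjusted p = 0.0211), short of the limit on size. Of the other colony-stimulating factors and receptors, 3 of 6 were called higher in LL37 than in control and none was called between LL37 and LL37 + RAPA by edgeR, where 3 had an unadjusted p under 0.05 and DESeq2 called 1. Csf2rb, the common receptor chain of the GM-CSF family, had log2 2.23 ± 0.40 (adjusted p = 0.00109) and Csf2rb2 1.27 ± 0.25 (adjusted p = 0.00188), with 0.997 and 0.57 over LL37 + RAPA.

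Cxcl12 and Cxcr4, the pair that retains neutrophils in bone marrow, were the last list. Neither was called by edgeR or DESeq2 in LL37 vs control, where both had an unadjusted p under 0.05, or between LL37 and LL37 + RAPA, where neither had. Cxcl12, named here after its value was seen, was called higher in LL37 + RAPA than in control (212 ± 44.9 against 101 ± 16.1 CPM, log2 1.08 ± 0.22, edgeR adjusted p = 0.00746), and it was at 185 ± 21.2 CPM in LL37. In LL37 vs control it passed the limit on adjusted p but not that on size (log2 0.88 ± 0.22, edgeR adjusted p = 0.00797).

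For each member the genes of most similar pattern were found by the mean absolute difference of centred log2 CPM over the 12 libraries, members left out. Nearest to Cxcr2 was Fpr1, with a mean difference of 0.27, followed by Mcemp1 (0.45) and Trim30b (0.47), where the median over all genes was 2.32. Csf3r was nearest to Tnfsf14 (0.30) and Mmp8 (0.36), and Cxcr1 to Trpm2 (0.32), Saa2 (0.37) and Trem3 (0.39).

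The ligands had other neighbours. Cxcl2 was nearest to Il1b (0.56), Ccl3 (0.76) and Ccl4 (0.77), and Csf3 to Osm (0.52), Ccl4 (0.52) and S100a9 (0.56). Cxcl1 was nearest to Tarm1 (0.40), Ptx3 (0.45) and Adamts4 (0.47), and Cxcl3 to S100a9 (0.62), Stfa2l1 (0.65) and Clec4e (0.67). For Cxcl5 the differences were larger, with Cd300lf at 0.92 and Stfa2l1 at 1.09. This measure grows with the size of a gene's changes, and the median over all genes was 3.30 for Cxcl5, 1.69 for Cxcl1 and 2.42 for Cxcl2. The neighbours are descriptions over libraries that share the same LL37 contrast. Among the members themselves the closest pair was Cxcr1 and Cxcr2 (0.49) and the most distant Cxcl1 and Cxcl5 (1.75).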

How the data were processed

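Whole mouse skin was sequenced as 12 samples, 3 in each of the 4 groups named by the labels. The authors deposited raw counts of reads per gene, without normalization or pooling. The study's methods name HTSeq and the submitters' processing notes name HISAT2 2.0.5, StringTie 1.3.3b, featureCounts 1.5.0-p3, DESeq2 1.16.1 and build mm10. Which counter made the table, and whether it used strand, is not given in the sources used here. Symbols and positions came from GENCODE M21 (GRCm38), which named 52403 of 52636 genes.

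Counts of all 12 libraries were fitted together in R 4.3.3 with edgeR 4.0.16 (TMM, filterByExpr by group, quasi-likelihood F-test, Benjamini-Hochberg over 17993 genes), so that the groups share 1 estimate of the spread. No batch is named in the labels. Log2 CPM used a prior count of 2. Code was tested on simulated data. DESeq2 1.42.0, other scalings, filters and dispersions, a replicate block and leaving out each library were the alternatives. Leaving out LL37 replicate 3 and LL37 + RAPA replicate 1 together, and the list counts by DESeq2 and without LL37 replicate 3, were added after seeing the data.

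The members and gene lists were chosen with earlier results of these data known. Named genes were all members, the 2 called genes of smallest p from each list in either comparison of LL37, the interleukin 1, TNF and interleukin 17 inducers, and the 3 genes most like each member. Some genes that this rule names are not reported here. Il36g is listed as Il1f9 in the annotation. Intervals cover counting error only.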

Additional observations from a re-analysis of the deposited data

Results flagged for a closer look

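The effect of RAPA differed between LL37 and control skin by the interaction test for 2 of the inducing cytokines. For Il1a the effect in LL37 skin minus that in control skin was -1.93 on the log2 scale (SE 0.38, edgeR quasi-likelihood adjusted p = 0.0279): its level was 20.6 CPM in LL37 and 7.96 in LL37 + RAPA, but 8.29 in control and 12.2 in control + RAPA. For Il36g it was -1.47 (SE 0.25, adjusted p = 0.0223), with 111 and 41.0 CPM against 47.5 and 48.8 CPM. The estimates ranged from -2.19 to -1.48 and from -1.61 to -1.32 over the 21 alternatives of each, and the call was lost in 8 of them for Il1a and in 3 for Il36g, all of which left out 1 library, with adjusted p up to 0.0770 and 0.0687. No member of the axis passed this test with all 12 libraries.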

How the results depend on the processing

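With 3 libraries a group, levels near the floor and a wide spread within LL37, calls on LL37 vs LL37 + RAPA are the least settled. Requiring at least 10 counts in every library left 3 members to test, of which 3 were called in LL37 vs control and 2 over LL37 + RAPA. Of all 14760 genes then tested, 2368 and 1219 were called in either direction. Fitting the compared groups alone left 1 member called in LL37 vs LL37 + RAPA, with 1237 of all genes called in either direction against 1823 in the main fit. Same-numbered libraries correlated between -0.188 and 0.263, with 4 of 18 pairs over 0.1, and libraries of different numbers between -0.303 and 0.277. With 3 libraries a group these correlations cannot decide whether equal numbers mark paired mice, and the labels describe no pairs. A fit with the replicate block called 7 members for LL37 over control, 3 for LL37 over LL37 + RAPA and 3 for LL37 + RAPA over control. Cxcl2 was lost in the first of these (edgeR adjusted p = 0.0821). Over all genes this fit called 3480, 1703 and 1081 in either direction, against 3516, 1823 and 1168 in the main fit. Leaving out 1 library gave 7 to 8 members called in LL37 vs control, 2 to 8 in LL37 vs LL37 + RAPA, 2 to 6 in LL37 + RAPA vs control and 0 to 1 in the interaction. Over all genes the calls then ran from 3006 to 4287, 1104 to 2727, 793 to 1394 and 2 to 1760 in the same order. Without both LL37 replicate 3 and LL37 + RAPA replicate 1 the number of members called was 6 in LL37 + RAPA vs control and 1 in the interaction. Over all genes 1432 and 1430 were then called in either direction. Testing every gene with a count gave 5 members in LL37 + RAPA vs control. Of the 31949 genes then tested, 1272 were called in either direction, against 1168 in the main fit. Directions reversed only among values that were not called, and the cause was not tested. Leaving out 1 library, log2 values ranged from -0.79 to 2.80 for Cxcl2 in LL37 + RAPA vs control. In control + RAPA vs control they ranged from -0.52 to 0.63 for Cxcl1, -3.54 to 1.10 for Cxcl2, -1.87 to 0.80 for Cxcl3, -1.25 to 0.33 for Cxcl5 and -0.73 to 0.51 for Cxcr2. In the interaction they ranged from -3.74 to 2.59 for Csf3 and from -0.52 to 0.39 for Csf3r, which was 0.055 when scaled by library size only.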
